A study of Homo sapiens and Mus musculus with 47 samples.

Results

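The replication-dependent histone genes were taken as the protein-coding genes whose symbol begins with HIST1H, HIST2H, HIST3H or HIST4H. The rule found 71 of the 57820 genes in each human table, with 55 on chromosome 6, 15 on chromosome 1 and 1 on chromosome 12. They comprised 6 linker H1 genes, 17 H2A, 18 H2B, 15 H3 and 15 H4 genes. In the mouse tables the same rule found 8 of 55401 genes, because the annotation used there had given most of the family other symbols (H1f, H2ac, H2bc, H3c and H4c). The mouse genes are therefore also described as a list of 67 protein-coding genes, including those 8, whose Ensembl identifiers carry Hist symbols in GENCODE vM21. That list was chosen after the tables were seen.

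Replication-dependent histone genes supply the core histones H2A, H2B, H3 and H4 and the linker H1 while DNA is copied, and their transcripts accumulate in S phase. Their mRNAs are the known exception to polyadenylation in animal cells. They end just after a conserved stem-loop, which is bound by SLBP and cut with the help of the U7 snRNP, and carry no poly(A) tail. Some members can also be made as longer, polyadenylated transcripts that run past the stem-loop, a form described in cells that have left the cell cycle. All the libraries described here were selected on poly(A), a step that retains RNA with a tail.

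Chrom-seq recovers RNA near a chromatin mark. A reader domain carries a peptide array that recruits the peroxidase APEX2, which attaches biotin-aniline to nearby RNA for capture on streptavidin. The TAF3 reader recognises H3K4me3, and it was set against a reader-free tag array in 3 lines: HCT116, from a human colon carcinoma, NIH3T3, mouse fibroblasts, and Neuro-2a, from a mouse neuroblastoma. The RNA-seq libraries come from HEK293T, a human embryonic kidney line. One set carries the CBX7 reader of H3K27me3 and has a control that the titles do not describe further. The study speaks of untreated HEK293T cells beside those given the reader, and its check also covers the introduction of biotin-aniline. An effect of the reader, one of its transfection and one of biotin-aniline therefore cannot be told apart. In the other set an antisense oligonucleotide (ASO) was directed at the long noncoding RNA SETD5-AS1, LINC00641 or LINC00662, beside a control ASO. There were 2 libraries for the LINC00641 ASO and 3 for every other group. The sample records give every group, RNA-seq included, 48 h, 30 min in 500 µM biotin-aniline and 1 min of 1 mM H2O2. The study's methods describe this labelling for Chrom-seq, and whether all RNA-seq cells were labelled is not settled here. All cells were established lines, so each group describes 1 line in culture, and nothing in the labels says that replicates were separate cultures. The study calls the replicates of some experiments, the CBX7 one among them, independent and does not say in what way. Spreads and p-values describe the libraries, and part of the spread may be technical.

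The stem-loop is shown first because it separates these genes from nearly all others. A stem-loop was sought in the 150 bases after the stop codon on the coding strand, and was found in 68 of the 71 human members and 65 of the 67 mouse genes. The stop codon of the other 3 human members (HIST1H2BF, HIST1H2BG and HIST1H4F) was not matched in the annotation. Over 47147 annotated human stop codons, 72 windows of the same length held the pattern, 0.153% of them. Of these 72, 68 were the stem-loops of members, and the other 4 followed stop codons of H2AX, AKAP1, BTBD10 and EIF3I. In humans the stem-loop began 22 to 67 bases after the stop codon, with a median of 35.0. The following sequences are from the coding strand of hg19, with the stem-loop in capitals and 5 bases on either side.
HIST1H2BK, chr6:27114140-27114165, minus strand: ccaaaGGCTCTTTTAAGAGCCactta
HIST1H2BD, chr6:26158810-26158835, plus strand: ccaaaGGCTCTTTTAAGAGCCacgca
HIST2H2BE, chr1:149857733-149857758, minus strand: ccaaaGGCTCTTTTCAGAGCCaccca
HIST3H2A, chr1:228645065-228645090, minus strand: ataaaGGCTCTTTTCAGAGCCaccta
HIST1H3B, chr6:26031820-26031845, minus strand: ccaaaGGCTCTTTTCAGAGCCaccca
HIST1H4C, chr6:26104540-26104565, plus strand: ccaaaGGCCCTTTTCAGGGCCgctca
Each is a stem whose bases pair around a loop of T-rich sequence, and 40 of the 68 human stem-loops were identical to that of HIST2H2BE.

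The members differ in where their annotated 3′ end lies. In 18 of the 68 the deposited gene span ended 100 or more bases past the stem-loop, and in the other 50 it ended less than 100 bases past it or before it. A poly(A) signal, AATAAA or ATTAAA on the coding strand, lay in the last 50 bases of the span of 16 of the 71 members, against 69.3% of the 20345 protein-coding genes of the human tables. Of those 16, 13 were among the 20 members whose span exceeded 1000 bases. HIST1H2BK and HIST1H2BD, which carry much of the signal below, are of this kind, with the signal in capitals within 30 bases near the end of each span.
HIST1H2BK, chr6:27106080-27106109, minus strand: gccctgtaccttAATAAAtttgtatgcctt
HIST1H2BD, chr6:26171541-26171570, plus strand: aaagttataattAATAAAatctgcggagaa
HIST2H2BE, chr1:149856015-149856044, minus strand: gctattgttattAATAAAgttaccaattaa
In HIST1H2BK the span runs 8072 bases past the stem-loop, in HIST1H2BD 12747 and in HIST2H2BE 1728. A match describes these letters in this window and does not show that the site is used.

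Total counts per library ran from 14213105 to 17445889 in the HCT116 table, from 10012172 to 17558305 in the mouse tables and from 8258859 to 15330874 in the RNA-seq tables. Each ASO library set had its target at its lowest level with the matching ASO. SETD5-AS1 was at 3.97 to 4.73 CPM (counts scaled to library size) with its own ASO and at 52.9 to 53.6 with the control ASO, LINC00641 at 0.917 to 1.93 against 38.5 to 43.1, and LINC00662 at 1.23 to 1.97 against 12.5 to 14.3. Other ASOs went with lower levels too: SETD5-AS1 was at 29.0 to 30.6 CPM with the LINC00641 ASO and 28.2 to 29.4 CPM with the LINC00662 ASO, and LINC00641 was at 24.8 to 29.7 CPM with the SETD5-AS1 ASO and 33.2 to 38.8 CPM with the LINC00662 ASO. The epithelial genes KRT8, KRT18, EPCAM and CDH1 were high in HCT116, and LIN28B and NEFM in HEK293T. PAX2 was at 8.89 to 13.4 CPM in HCT116 and so did not set the human lines apart. The summed epithelial markers moved with groups of HEK293T libraries, at 568 to 643 CPM with the control ASO against 257 to 417 CPM with the others, and at 426 to 462 CPM with CBX7 against 295 to 316 CPM in its control. Their part in the histone results was not tested. The fibroblast markers were high in NIH3T3. Hand2 and Gata3 were high in Neuro-2a.

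Counts from the members were low. The 71 members summed to 69.8 to 97.5 CPM in a HCT116 library, 75.6 to 123 in one of the CBX7 set and 60.5 to 166 in one of the ASO set. For HCT116, 32 of the 71 passed a filter of more than 3 counts per library on average and 19 had no count in any library. For the CBX7 set 35 passed and 13 had no count, and for the ASO set 11 had none. A member with no count in a library is limited to 3 counts of its total, counting error only. That limit does not cover near-identical copies such as HIST2H3A and HIST2H3C, which had no count in HCT116. How reads matching several copies were counted is not stated. Members below the filter were not tested, so counts of tested members describe only those with enough reads.

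A few members held most of the reads. HIST1H2BK, HIST1H2BD, HIST1H2AC, HIST3H2A and HIST1H1C took 66.0% of the members' counts in HCT116. HIST1H2BK, HIST3H2A, HIST1H4C, HIST1H1C and HIST1H2BD took 63.2% in the CBX7 table and 59.7% in the ASO table. The 10 members that background knowledge names as polyadenylated (listed at the end) took 75.4%, 60.7% and 60.0% in those tables. Of these, HIST3H2A and HIST1H1C have spans ending 5 and 4 bases past the stem-loop, without a poly(A) signal. HIST4H4 has no signal at its span end either. The counts do not show which form of transcript the reads came from. The 18 members whose span runs 100 or more bases past the stem-loop took 60.3% to 69.1% of the counts in a HCT116 library. These are shares of counts, and the longer spans collect more reads. Per kilobase of span the order changed. HIST3H2A was highest in HCT116, at 17.3 CPM per kilobase, and HIST1H1C came next at 10.8. In the ASO table HIST1H4C was highest at 19.5 CPM per kilobase, followed by HIST3H2A at 17.3, while HIST1H2BK stood at 2.80. With the LINC00641 ASO the order of the first 2 was the reverse, with HIST3H2A at 21.5 and HIST1H4C at 14.2 CPM per kilobase.

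SETD5-AS1 ASO replicate 3 stood apart from the other libraries of its group, as did Neuro-2a TAF3 replicate 1 in the mouse tables and control replicate 2 in the CBX7 set. The chi-square per gene between replicates was 11.2 and 10.3 for the first of these against 4.23 for the other pair of its group, 36.2 and 41.4 against 3.35 for the Neuro-2a library, and 9.91 and 14.4 against 4.37 for the CBX7 control. Counts of members called that rest on them are given with and without them. The calls and means of the related genes are given with them only. In the ASO table the summed level of the members was 106 to 114 CPM with the control ASO, 60.5 and 62.2 CPM with the LINC00641 ASO and 75.3 to 79.8 CPM with the LINC00662 ASO. With the SETD5-AS1 ASO it was 66.1 and 68.7 CPM in replicates 1 and 2 and 166 CPM in replicate 3. HIST1H3B, which encodes a replication-dependent H3, shows it most plainly. It had 0.166 and 0.227 CPM in replicates 1 and 2 with the SETD5-AS1 ASO and 7.55 CPM in replicate 3. HIST1H4D had 0.415 and 0.606 CPM there against 7.15 CPM, and the linker gene HIST1H1E had 1.16 and 1.67 CPM against 11.4. The library also carried more of 11 other RNAs that lack a poly(A) tail, such as RN7SK (7SK RNA) and RMRP (the RNA of RNase MRP), which summed to 1347 CPM in it and to 93.8 to 198 CPM in the other 10 ASO libraries. The 61 members outside the known polyadenylated list summed to 99.1 CPM in it, against 22.7 to 34.4 CPM in the other 10, and the 10 polyadenylated members to 66.8 CPM, between the control ASO libraries and the rest. The part of these RNAs in the histone results was not tested.

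**Figure D1:**
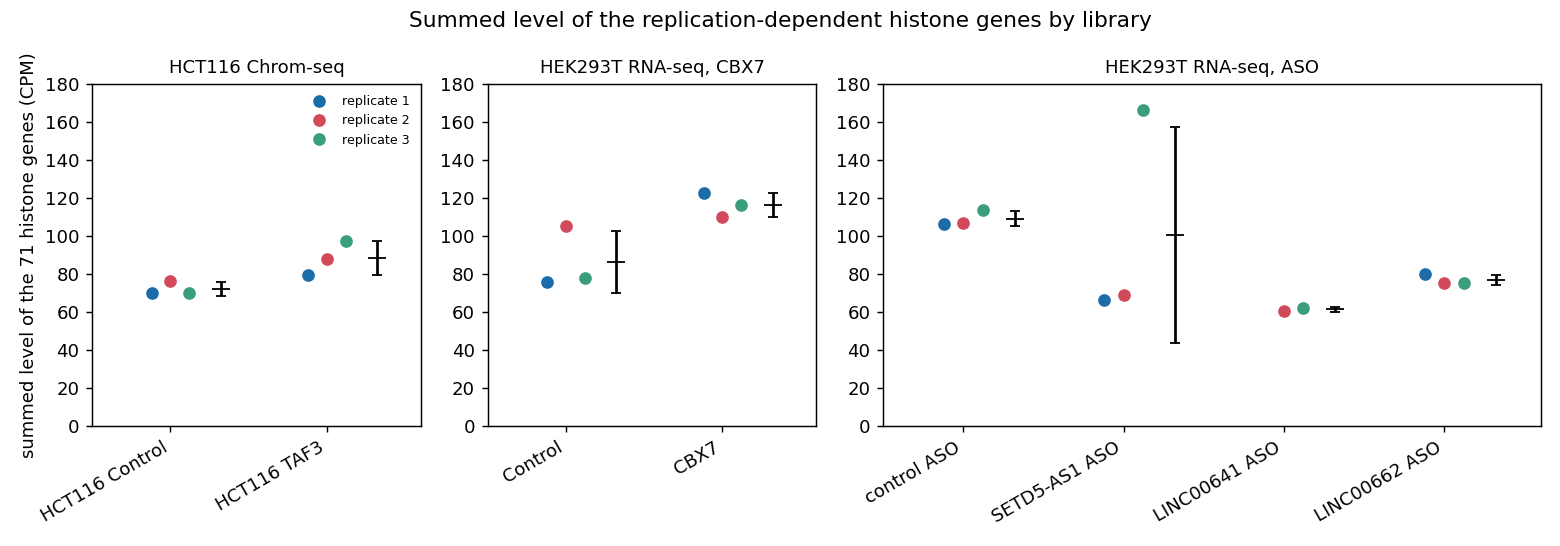
Summed level of the 71 members in CPM on the y axis, by group on the x axis, for the HCT116, CBX7 and ASO tables. Points are libraries coloured by replicate number and bars are the mean ± SD. SETD5-AS1 ASO replicate 3, at 166 CPM, lies above every other ASO library.

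**Figure D2:**
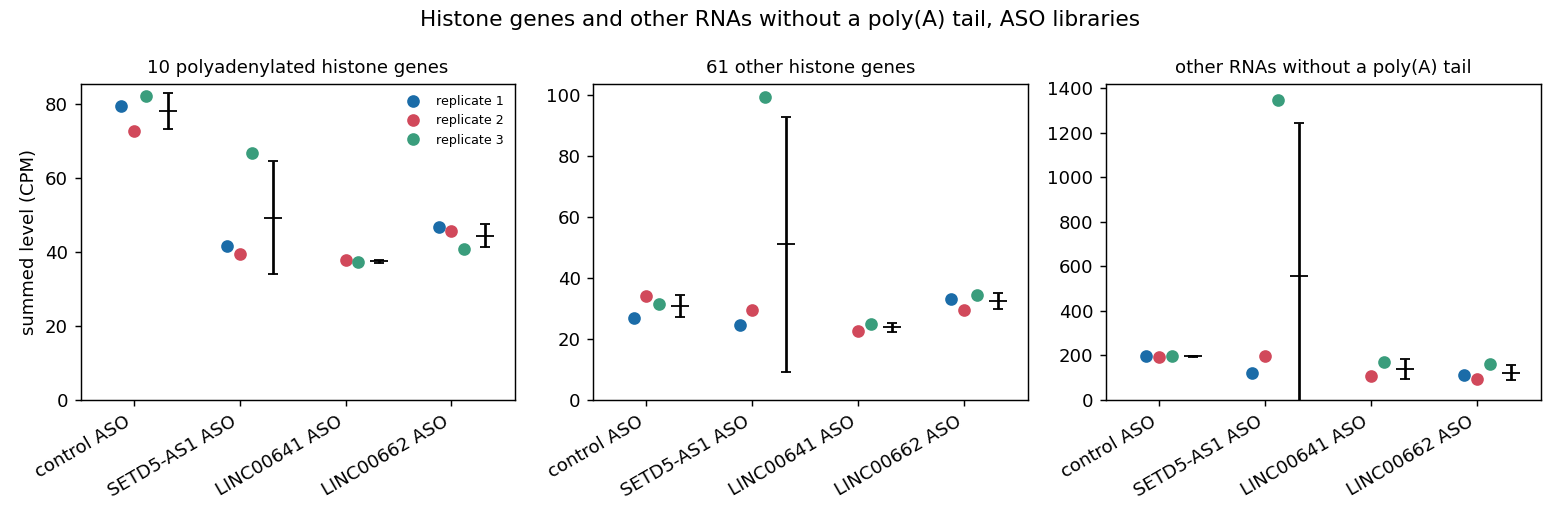
Summed level in CPM by ASO group for the 10 polyadenylated members, the other 61 members and 11 other RNAs without a poly(A) tail. Points are libraries and bars are the mean ± SD, cut at 0 in the right panel. SETD5-AS1 ASO replicate 3 is highest in the middle and right panels, at 99.1 and 1347 CPM.

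The first comparison asks whether histone RNA is enriched at H3K4me3, found at active promoters, over the tag array alone. With TAF3 in HCT116, 6 members were higher and 1 was lower of 32 tested and 71 in all. Over all 18731 genes tested, 3.34% were called higher and 3.28% lower. The members tested had a median log2 fold change of 0.50, against -0.01 over all genes tested. It ran from 0.21, without TAF3 replicate 3, to 0.60 when 1 library was left out, and was 0.16 with filterByExpr, a stricter filter. A bulk value cannot tell apart a change in the number of cells that carry an RNA from a change in RNA per cell.

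HIST2H2BE (ENSG00000184678.8, chr1:149856010-149858232), an H2B gene known for polyadenylated transcripts, rose from 1.48, 1.62 and 1.64 CPM in the control to 3.27, 6.13 and 3.22 CPM with TAF3. The groups did not overlap (log2 fold change 1.41, standard error 0.265, edgeR adjusted p = 3.26e-05). HIST1H2BC, another H2B gene of the polyadenylated list, rose from 2.03 ± 0.216 to 4.11 ± 1.02 CPM (SD, n = 3 each; edgeR adjusted p = 0.000793). HIST1H1E, which encodes a linker H1, rose from 0.802 ± 0.458 to 2.47 ± 0.517 CPM (edgeR adjusted p = 0.000312).

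By histone class, the summed H2B level was 33.5 to 35.6 CPM in the control and 39.7 to 49.1 CPM with TAF3, without overlap. The H2A sums overlapped, at 22.1 to 23.7 and 20.8 to 28.5 CPM, as did those of H3 and H4.

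The other called members had few reads, and HIST1H3J overlaps HIST1H2AM on the same strand. HIST1H4H had 9, 12 and 12 counts with TAF3 and 6, 1 and 4 in the control. HIST1H3J had 9, 12 and 16 against 3, 4 and 6, and HIST1H2BF had 5, 7 and 9 against 3, 1 and 0. HIST1H2BF passed the filter only through the TAF3 libraries. HIST1H3E, an H3 gene, was the member that fell, from 1.46 ± 0.202 to 0.645 ± 0.177 CPM, which is 13, 7 and 10 counts against 20, 28 and 26. Its fall was lost without TAF3 replicate 2, control replicate 2 or control replicate 3, and without TAF3 replicate 3 only 3 members were called higher. The calls of HIST1H4H, HIST1H3J and HIST1H2BF were lost in 6, 5 and 5 of 11 alternative settings, DESeq2 and that library's removal among them.

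The members with the most reads were not called. HIST1H2BK was at 12.4, 12.3 and 11.8 CPM in the control and at 11.7, 17.4 and 13.5 CPM with TAF3, with overlapping groups (log2 fold change 0.22, standard error 0.126). HIST3H2A had 153, 171 and 132 counts in the control and 125, 109 and 143 with TAF3, with overlapping groups. HIST1H1C was at 7.12 ± 1.23 and 8.67 ± 1.11 CPM. HIST1H2BD, at 11.1 ± 0.305 and 14.9 ± 1.86 CPM, passed the adjusted p (edgeR, 0.00506) but its log2 fold change of 0.42 was under the threshold of 0.75. Of the 10 polyadenylated members 9 were tested, and 3 of these were called higher (HIST2H2BE, HIST1H2BC and HIST1H4H).

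Related genes were counted on the same fit. Of 16 S phase genes tested, 5 were higher by edgeR, and at an unadjusted p under 0.05 all 16 were higher and 0 lower, where 21.7% of all genes were higher and 21.4% lower at that p. The 5 were CLSPN, MCM4, GINS2, PCNA and SLBP, which encodes the stem-loop binding protein and went from 52.9 ± 4.90 to 97.7 ± 1.18 CPM. The list's summed level was 2224 to 2364 CPM in the control libraries and 3513 to 3637 CPM with TAF3. CCNE2, a cyclin of the histone transcription list, was the only one of 9 called, and of 17 processing genes only SLBP was called. None of the 11 replication-independent histone genes was called by edgeR, with 3 higher and 3 lower at an unadjusted p under 0.05. RN7SK, RMRP and RPPH1 were higher among 8 other RNAs without a poly(A) tail, whose summed level was 67.2 to 92.9 CPM in the control and 86.7 to 162 CPM with TAF3. The part of these RNAs and of the S phase genes in the histone values was not tested.

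HEK293T cells with the CBX7 reader were compared with their control by RNA-seq. There 8 members were higher and 0 lower of 35 tested, with 13 higher and 1 lower at an unadjusted p under 0.05, where 18.8% and 20.8% of all genes passed that p. Over all 18204 genes tested 4.17% were called higher and 3.48% lower. The median log2 fold change was 0.78 over the members tested and -0.01 over all genes. The summed level was 75.6, 105 and 77.7 CPM in the control and 123, 110.0 and 116 CPM with CBX7, so that the lowest CBX7 library lay above the highest control library.

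**Figure D3:**
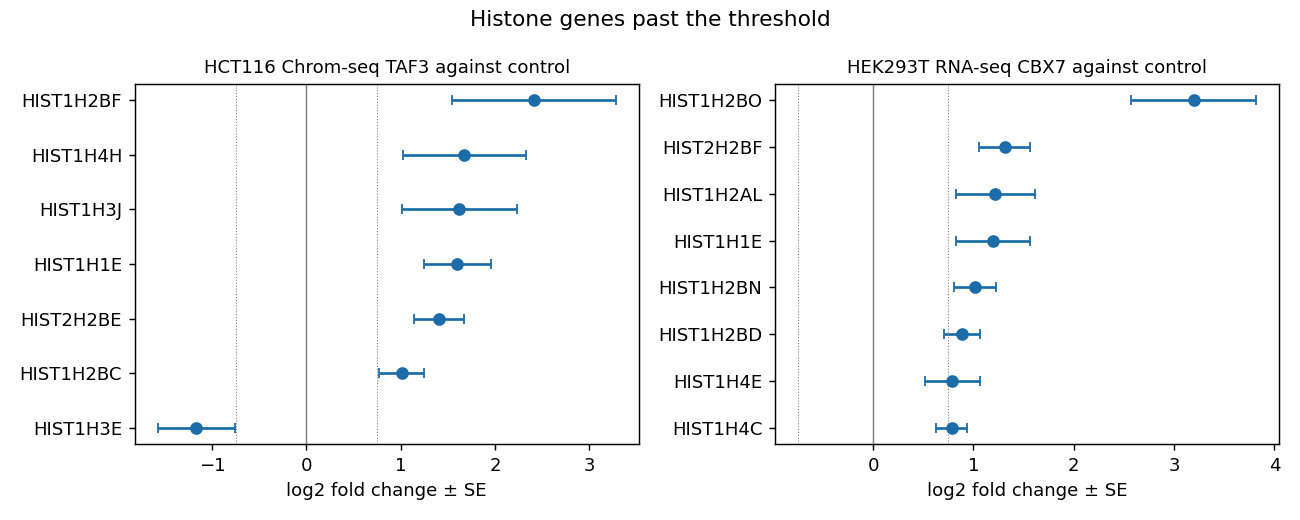
Log2 fold change ± standard error of the members past the threshold, for TAF3 against control in HCT116 Chrom-seq on the left and CBX7 against control in HEK293T RNA-seq on the right. Dotted lines mark 0.75 in either direction. All 8 CBX7 points lie to the right of 0.75, and HIST1H3E is the 1 HCT116 point on the left.

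The H4 genes summed to 10.8 to 17.0 CPM in the control and 22.0 to 24.4 CPM with CBX7, and the H2B genes to 30.4 to 39.3 and 48.3 to 51.9 CPM. Neither pair overlapped. The H2A sums did, at 22.1 to 33.3 and 21.3 to 29.1 CPM.

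Members with and without a long span were among the 8. HIST1H4C, an H4 gene of compact span, rose from 7.97, 10.6 and 7.18 CPM to 13.7, 14.3 and 16.3 CPM (log2 fold change 0.78, standard error 0.158, edgeR adjusted p = 0.00156). HIST1H2BD, the polyadenylated H2B gene, rose from 4.18 ± 0.446 to 7.74 ± 0.360 CPM (SD, n = 3 each; edgeR adjusted p = 0.00143). HIST1H2BN, an H2B gene with a long span, rose from 2.65 ± 0.260 to 5.35 ± 0.288 CPM (edgeR adjusted p = 0.00180). The H2B gene HIST1H2BO rose from 1, 1 and 3 counts to 11, 10 and 14. It passed the filter, a mean over 3 counts per library, only through the CBX7 libraries.

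HIST2H2BF went from 1.97 ± 0.641 to 4.91 ± 0.0268 CPM, but its reads are uncertain. Its 29684 base span overlaps FCGR1A on the opposite strand and RP11-196G18.21 and RP11-196G18.3 on the same strand. HIST1H1E, HIST1H4E and HIST1H2AL were the other 3, with adjusted p values of 0.0231, 0.0418 and 0.0291 by edgeR. HIST1H1E was at 6.72, 2.35 and 4.35 CPM with CBX7 and at 1.74, 2.85 and 1.16 CPM in the control, and its groups overlapped. The calls of HIST1H1E, HIST1H2AL and HIST1H4E were lost in 4, 4 and 6 of 13 alternative settings, and that of HIST1H4C in 3, at log2 fold changes of 0.67 to 0.73. HIST3H2A, HIST1H1C and HIST2H2BE of the polyadenylated list did not reach the threshold, and HIST3H2A had 19.6 ± 3.68 CPM in the control and 13.6 ± 2.96 CPM with CBX7. HIST1H2BK stood at 17.7 ± 2.97 and 22.8 ± 1.35 CPM.

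The 61 members outside the polyadenylated list summed to 28.1 ± 7.69 CPM in the control and 53.8 ± 2.96 CPM with CBX7, and the polyadenylated 10 to 58.1 ± 8.91 and 62.5 ± 3.65 CPM. The 11 other RNAs without a poly(A) tail summed to 28.2 ± 7.36 and 47.2 ± 4.14 CPM in the same libraries, and of 7 tested RN7SK and RNU4-2 were called higher. Their part in the histone values was not tested. The number of members called ran from 4 to 13 when 1 library was left out. It was 4 without control replicate 1 or 3, 5 without CBX7 replicate 3 and 13 without control replicate 2, where 4.73% of all genes were called higher and 4.12% lower. Of the related lists, H1FX was lower and ZNF473, a subunit of histone pre-mRNA processing, was higher.

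The ASO experiment compared depletion of each long noncoding RNA with the control ASO. The 3 comparisons share the same 3 control ASO libraries. A change with all 3 targeting ASOs and one with the control ASO cannot be told apart. HIST1H2BK (ENSG00000197903.6, chr6:27106073-27114619), the member with the most reads, was high in the control ASO group, at 46.7, 45.2 and 51.7 CPM. It was at 17.6, 15.1 and 20.8 CPM with the SETD5-AS1 ASO, at 10.6 and 13.6 CPM with the LINC00641 ASO and at 14.2, 14.7 and 13.1 CPM with the LINC00662 ASO. The control libraries lay above all 8 others.

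The log2 fold change of HIST1H2BK was -1.42 with a standard error of 0.109 for SETD5-AS1, -1.96 with 0.125 for LINC00641 and -1.70 with 0.0981 for LINC00662. The edgeR adjusted p was 8.78e-09, 1.62e-10 and 1.07e-13. For comparison, and in a table normalised on its own, HIST1H2BK was at 15.5, 21.1 and 16.5 CPM in the control RNA-seq libraries of HEK293T cells. The 16 members with a poly(A) signal held 62.7% to 68.9% of the members' counts with the control ASO. They held 33.5% to 51.4% with SETD5-AS1, 41.2% to 44.3% with LINC00641 and 42.8% to 46.6% with LINC00662. The lowest share with SETD5-AS1 was that of replicate 3. In that HEK293T control the 16 held 39.1% to 42.1%. HIST1H2BK and HIST1H2BD are among the 16, and the share without these genes was not computed. HIST1H4I lies opposite within the span of HIST1H2BK, and the counting of strand is not stated, so reads from one could be counted in the other.

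HIST1H2BD, another polyadenylated H2B gene, was also lower with each targeting ASO than with the control ASO. Its span overlaps LARP1P1 on the same strand, so its reads are uncertain. In the HEK293T control of the CBX7 set, normalised on its own, HIST1H2BD was at 4.18 ± 0.446 CPM. It was at 11.5, 12.9 and 12.1 CPM with the control ASO and at 3.99, 4.47 and 6.12 CPM with SETD5-AS1, 3.13 and 2.71 CPM with LINC00641 and 6.98, 6.29 and 5.25 CPM with LINC00662. Its log2 fold changes were -1.31, -2.04 and -0.90 with standard errors of 0.170, 0.191 and 0.153 (edgeR adjusted p = 4.02e-06, 3.15e-08 and 1.47e-05). HIST3H2A, an H2A gene on chromosome 1, was instead lowest with the control ASO, at 6.05, 5.30 and 5.75 CPM. It was at 8.72, 8.33 and 9.46 CPM with SETD5-AS1, 12.3 and 9.06 CPM with LINC00641 and 10.3, 11.0 and 8.31 CPM with LINC00662. Its rise passed the threshold for LINC00641 (log2 fold change 0.92) and LINC00662 (0.86), and stood at 0.64 for SETD5-AS1 with an edgeR adjusted p of 0.00244.

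**Figure D4:**
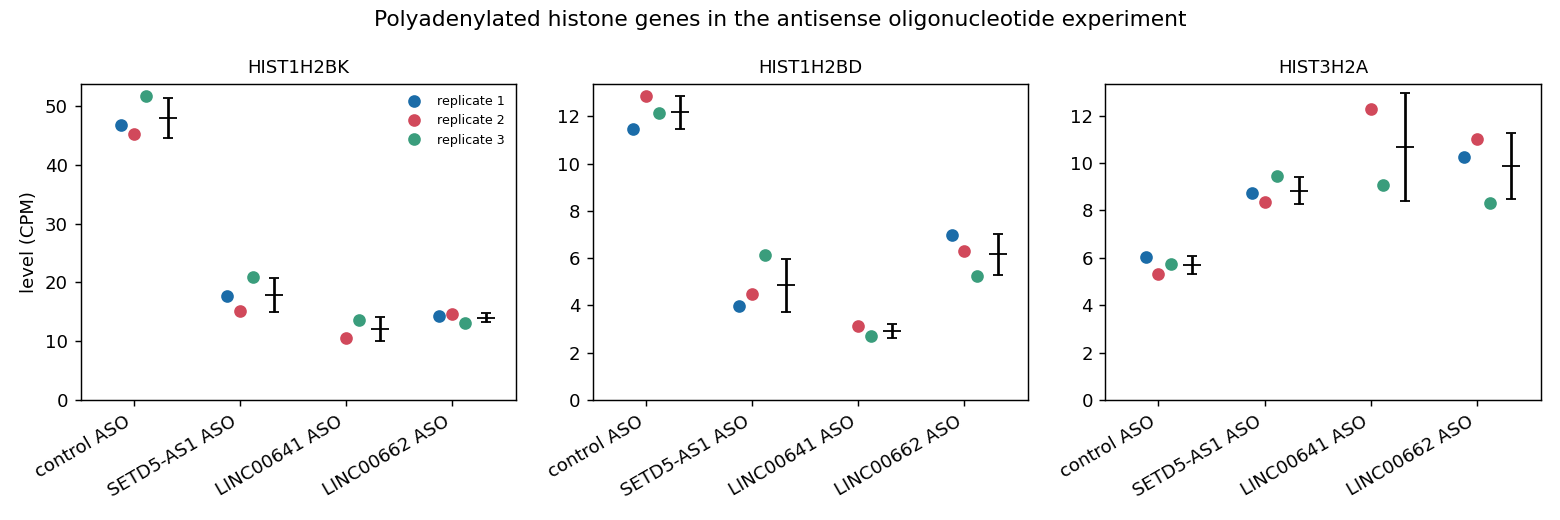
Level in CPM of HIST1H2BK, HIST1H2BD and HIST3H2A in the 4 ASO groups. Points are libraries and bars are the mean ± SD. HIST1H2BK and HIST1H2BD are highest and HIST3H2A is lowest in the control ASO libraries.

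By histone class, the H2B genes summed to 67.7 to 76.9 CPM with the control ASO and to 24.5 to 55.8 CPM in the 8 other libraries. The H3 genes summed to 6.05 to 6.20 CPM with the control ASO, to 1.41, 1.97 and 14.3 CPM with SETD5-AS1, to 3.13 and 1.93 CPM with LINC00641 and to 1.71 to 3.29 CPM with LINC00662. Apart from SETD5-AS1 ASO replicate 3, each targeting library was below the controls for H3. The linker H1 genes ran the other way, at 4.77 to 6.36 CPM with the control ASO and 6.40 to 8.62 CPM in the targeting libraries other than that replicate, where they reached 29.5 CPM.

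The calls with each ASO were as follows. With LINC00641 1 member was higher and 7 lower of 33 tested, against 11.0% and 11.5% of all 18503 genes tested. With LINC00662 3 were higher and 6 lower of 32, against 11.6% and 13.3% of 18562 genes. With SETD5-AS1 9 were higher and 3 lower of 35, against 12.9% and 11.5% of 18544 genes. The medians were -0.22, 0.28 and 0.75, against 0.00, 0.00 and 0.03 over all genes. Leaving out 1 library moved the LINC00641 median to between -0.58, without its replicate 3, and -0.09, without control ASO replicate 3, and it was -0.33 without control ASO replicate 1. The LINC00662 median moved to between 0.14, without its replicate 3, and 0.38.

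The SETD5-AS1 count rested on replicate 3. Without it, 0 members were higher and 7 lower of 29 tested, where 2290 of 18504 genes were called higher and 2103 lower, 12.4% and 11.4%. DESeq2 was not run without that library, and 10 of the 29 members had an unadjusted edgeR p under 0.05, against 56.5% of all genes. The median over the members tested became -0.15. HIST1H1E, at log2 2.52 with the library, had 1.16 and 1.67 CPM in replicates 1 and 2 against 0.465 to 1.04 CPM with the control ASO, and was not called. The 7 lower members without replicate 3 were HIST1H2BK, HIST1H2BD, HIST2H2BE, HIST1H3A, HIST1H3B, HIST1H2AK and HIST1H3J. HIST1H2BK kept a log2 fold change of -1.54 and HIST1H2BD of -1.51.

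Other H2A, H3 and H4 genes fell with 1 or more ASOs, at low counts. HIST1H3A was at 20, 11 and 11 counts with the control ASO, 2 and 3 with LINC00641 and 6, 3 and 1 with LINC00662. For LINC00641 HIST1H3A passed the filter only through the control ASO libraries. HIST1H3B was at 21, 14 and 14 counts against 8 and 7, and 4, 1 and 7. HIST1H3A and HIST1H3B were called lower with both LINC00641 and LINC00662. The call of HIST1H3B with LINC00641 was lost in 6 of 12 alternative settings (edgeR or DESeq2 adjusted p up to 0.324) and with LINC00662 in 1 of 13. HIST1H3J fell with SETD5-AS1 and LINC00662, and HIST1H3H, HIST1H4D and HIST1H2AK were called lower with LINC00641. That call was lost in 10 of 11 alternative settings for HIST1H2AK, including DESeq2 and the removal of any 1 library, in 7 of 12 for HIST1H4D and in 1 of 12 for HIST1H3H.

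Of the members called with LINC00662, HIST2H4B, one of a pair of near-identical H4 genes on chromosome 1, had 14, 9 and 8 counts against 0, 1 and 1. It passed the filter only through the LINC00662 libraries. Its reads are uncertain, since it shares sequence with HIST2H4A and overlaps HIST2H3A on the opposite strand. The counts of the copies were not merged in this comparison. HIST1H1E rose from 0.833 ± 0.319 to 1.85 ± 0.334 CPM (SD, n = 3 each; edgeR adjusted p = 0.00853), and HIST2H2BE was called lower, at 3.28 ± 1.17 and 1.83 ± 0.567 CPM. The call of HIST2H2BE was lost in 6 of 13 alternative settings (edgeR or DESeq2 adjusted p up to 0.244), including those without LINC00662 replicate 1, control ASO replicate 1 or control ASO replicate 3, and that of HIST1H1E in 2.

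The RNAs of other lists moved too. SLBP rose from 122 ± 4.55 CPM with the control ASO to 307 CPM with SETD5-AS1 and 342 CPM with LINC00662, log2 fold changes of 1.34 and 1.56 with standard errors of 0.0928 and 0.0792. With LINC00641 it was at 161 ± 26.6 CPM, and its log2 fold change of 0.42 was under the threshold. NCBP2, the small cap-binding subunit, fell from 193 ± 10.4 CPM to 76.6 ± 3.35, 81.8 ± 2.43 and 68.9 ± 2.99 CPM with the SETD5-AS1, LINC00641 and LINC00662 ASOs. Of 17 processing genes, 2 were higher and 5 lower with SETD5-AS1, 1 and 5 with LINC00641, and 2 and 3 with LINC00662. Of 16 S phase genes, 1 was higher with SETD5-AS1, and 1 was higher and 2 lower with LINC00662, by edgeR. With LINC00641 0 were called by edgeR, and 8 were higher and 3 lower at an unadjusted p under 0.05, where 28.0% and 27.2% of all genes passed that p. H2AFX (the H2AX named above), the replication-independent H2A variant whose stop codon is also followed by a stem-loop, fell with each ASO, from 146 ± 7.68 to between 62.9 ± 7.92 and 78.7 ± 6.76 CPM.

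The targeting ASOs were also compared with each other, in 1 fit of all 11 ASO libraries. In it 7 members were lower with LINC00662 than with SETD5-AS1 and 0 higher of 35 tested, where 8.82% and 2.51% of 18529 genes were called. Without SETD5-AS1 replicate 3, 0 of 32 were called by edgeR where 8.01% of all genes were lower and 2.45% higher, and 4 of the 32 had an unadjusted p under 0.05, against 38.6% of all genes. HIST1H4A was at 0 counts in all 3 LINC00662 libraries and at 4, 6 and 21 with SETD5-AS1 and 4 and 3 with LINC00641. Its total was 50 counts, against a filter of over 33. It passed only through the 21 counts of SETD5-AS1 replicate 3 and was not tested without that library. HIST1H2BD was higher with LINC00662 than with LINC00641 (log2 fold change 1.08, standard error 0.219, edgeR adjusted p = 0.000817), and HIST1H4A was lower, out of 35 tested, where 2.13% of all genes were higher and 6.26% lower. That call of HIST1H4A was lost in 7 of 15 alternative settings. With SETD5-AS1 against LINC00641, HIST1H4D and HIST1H2AG were higher of 35 and 0 were lower, where 1.27% and 0.783% of all genes were called. Without SETD5-AS1 replicate 3 HIST1H2AG was still called, at a log2 fold change of 1.87, where 1.08% were higher and 0.756% lower.

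Among the 67 mouse genes, the 27 genes whose span runs 100 or more bases past the stem-loop held 50.7% to 65.2% of the list's counts in a library, and the 16 with a poly(A) signal at the end of the span held 10.3% to 17.7%. H1f4, a linker gene, was highest per kilobase in both tables, at 97.5 and 130 CPM per kilobase of span, and its span overlaps that of H2bc6. In NIH3T3 the summed level of the 67 genes was 569 to 779 CPM in the control and 555 to 753 CPM with TAF3. In Neuro-2a it was 849 to 916 CPM in the control and 568, 614 and 874 CPM with TAF3, where 874 belongs to replicate 1. With TAF3 the mouse libraries were compared as in HCT116. In NIH3T3, 1 of the 59 genes tested was higher and none lower, against 10.7% and 0.375% of all 19220 genes. By name, 0 of the 7 tested were called by edgeR or DESeq2, with 3 at an unadjusted p under 0.05, against 33.9% of all genes. The 1 gene was H2ac13, at 3.30, 4.66 and 2.65 CPM in the control and 4.24, 5.91 and 8.05 CPM with TAF3, and its groups overlapped. Its call was lost in 5 of 12 alternative settings.

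**Figure D5:**
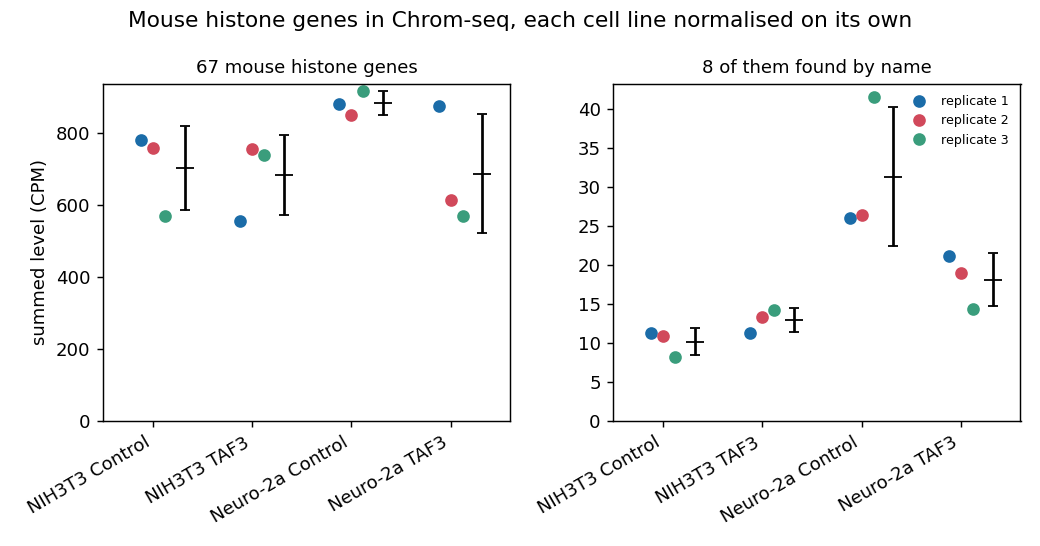
Summed level in CPM of the 67 mouse histone genes on the left and of the 8 found by name on the right, by group. Points are libraries, bars are the mean ± SD, and each cell line was normalised on its own. In Neuro-2a, TAF3 replicate 1 sits at 874 CPM on the left and the other 2 TAF3 libraries sit at 614 and 568 CPM.

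In Neuro-2a none of 59 genes was called with TAF3 by edgeR, where 1.01% of 17006 genes were called higher and 0.0235% lower. DESeq2 called 3 lower, and its share over all genes was not computed. The list had 11 lower and 0 higher at an unadjusted edgeR p under 0.05. At an unadjusted p under 0.05, 9.55% of all genes were higher and 6.68% lower. The 8 genes found by name gave 0, with 3 at an unadjusted p under 0.05, all lower. H3c13 (mm10 chr3:96268654-96269141), an H3 gene, was at 22.4, 63.3 and 49.8 CPM in the control and 18.2, 20.9 and 15.6 CPM with TAF3 (log2 fold change -1.31, edgeR adjusted p = 0.0852). Without TAF3 replicate 1, 9 of the 58 genes tested were lower and 0 higher, where 0.325% and 3.34% of 16940 genes were called. Of the 7 tested that were found by name, 2 were lower, Hist1h2an and Hist1h4n. The median over the tested genes was -0.28 with the library and -0.49 without it.

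The difference between the lines, Neuro-2a minus NIH3T3, was tested as an interaction over 12 libraries. Of 61 genes tested 0 were higher and 2 were lower, where 0.718% and 2.33% of 19509 genes were called. Of the 8 found by name, 1 was lower. The 2 of the 61 were Hist1h2an, an H2A gene, with a difference of -1.83 and a standard error of 0.393 (edgeR adjusted p = 0.0123), and H3c13 with -1.93 and 0.430 (edgeR adjusted p = 0.0157). H3c13 was not called without NIH3T3 control replicate 3, NIH3T3 TAF3 replicate 3 or Neuro-2a control replicate 2 (edgeR adjusted p up to 0.0616), while Hist1h2an was called in all 18 alternative settings. Hist1h2an was at 13.7, 17.7 and 27.2 CPM in Neuro-2a control and 10.1, 12.2 and 8.23 CPM with TAF3. In NIH3T3 it was at 1.57, 1.34 and 1.93 CPM and 2.74, 2.63 and 3.55 CPM. H3c13 was at 7.25, 5.56 and 3.85 CPM in NIH3T3 control and 7.42, 7.40 and 10.6 CPM with TAF3. Without Neuro-2a TAF3 replicate 1, 6 of the 61 were lower and 0 higher, where 1.11% of all genes were higher and 3.25% lower.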

How the data were processed

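Raw counts of reads for each gene were deposited by the authors, whose processing notes name FastQC 0.11.8, fastp 0.23.1, HISAT2 2.1.0, featureCounts 2.0.1 and DESeq2 1.34.0 with hg19 and mm10. The tables give each gene the length of its whole span. The strand setting of the counting is not given in the sources used here. The table holding the 12 HEK293T Chrom-seq libraries was not used here, and its comparisons were not analysed.

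The members follow the symbol rule, and members and lists were chosen with earlier results of these data known. The polyadenylated list, taken from background knowledge, is HIST1H2BK, HIST1H2BD, HIST1H2AC, HIST1H1C, HIST2H2BE, HIST1H2BC, HIST1H2BJ, HIST1H4H, HIST3H2A and HIST4H4. Each comparison of 2 groups was fitted on its libraries with edgeR 4.0.16 in R 4.3.3 (quasi-likelihood test, TMM normalization, Benjamini-Hochberg adjustment over all genes tested), with pairs of targeting ASOs taken from 1 fit of 11 libraries. Genes entered above a mean of 3 counts per library. Genes were called at an adjusted p below 0.05 when the log2 fold change also reached 0.75 in either direction. CPM is the count scaled to the TMM-normalised library size. Named genes were those called (for over 10 calls, the 10 largest with a mean of at least 20 counts), the 5 of highest mean CPM per table, the polyadenylated list, near-identical copies of the chromosome 1 cluster and up to 4 genes of each related list. Any other was chosen after its values were seen. Tested on simulated data holding 200 genes with a log2 change of 1.5, the fit recovered 194 for HCT116 and 165 for the interaction. The fit made 6 false calls for HCT116 and 10 for the interaction. Recovery was not split by count level, so it does not show what would be found among members with few reads. In HCT116 only 11 of the 71 members averaged over 20 counts per library. Counts were checked for copied libraries: in 34 replicate pairs, 0 were identical. Some of the Neuro-2a markers are not reported here. PCR reads are not independent molecules. Intervals and limits cover counting error only. Stem-loops and poly(A) signals were read from GRCh37 and GRCm38 sequence with GENCODE v44 (lifted to GRCh37) and vM21 stop codons; the 71 and 67 genes were matched by identifier or older symbol. Alternatives were DESeq2 1.42.0, its size factors in edgeR, unscaled library sizes, filterByExpr or no filter, a replicate block and leaving out each library. For the comparisons with the control ASO, all ASO groups were also put in one fit. Near-identical copies were merged for the CBX7 comparison only.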

Additional observations from a re-analysis of the deposited data

Results flagged for a closer look

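The effect of TAF3 on 2 mouse histone genes differed between the cell lines, by a test of that difference over 12 libraries. They were the 2 called lower of 61 tested, with 0 higher, where 2.33% of 19509 genes were called lower and 0.718% higher. For H3c13 the effect in Neuro-2a minus that in NIH3T3 was -1.93 on the log2 scale, and for Hist1h2an it was -1.83. Without Neuro-2a TAF3 replicate 1 the differences were -1.92 and -1.81. The difference of H3c13 no longer passed the test without NIH3T3 control replicate 3, NIH3T3 TAF3 replicate 3 or Neuro-2a control replicate 2 (edgeR adjusted p up to 0.0616), and that of Hist1h2an passed it in all 18 alternative settings. Both genes overlap a predicted gene on the opposite strand, and whether counting used strand is not stated. H3c13 belongs to the list of 67 genes chosen after the tables were seen.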

How the results depend on the processing

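Single-gene results kept their side of the threshold in 806 of the recomputations with all libraries, with 31 lost and 10 gained calls. With 1 library left out, 887 kept it, 97 lost and 15 gained a call, and 2 called genes reversed. These were HIST1H3B (0.46) and HIST1H4D (0.32) for LINC00662 against SETD5-AS1, without SETD5-AS1 ASO replicate 3. Their lowest values among libraries left out were -3.91 and -2.56. A gene called in neither fit was counted as kept even where its sign changed. HIST1H2BJ in HCT116, never called, ran from -0.65 to 0.15. The cause of the changes below was not tested. For most of these settings the share of all genes called was not computed. The counts below therefore show only how far the number of members called moved.

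With DESeq2, 3 members were higher in HCT116 (also 3 with filterByExpr), 0 of the 67 mouse genes higher in NIH3T3, 1 member and 3 of the 67 lower in Neuro-2a, 4 lower with LINC00641, 0 lower for LINC00662 against LINC00641, and 2 members and 4 of the 67 lower in the interaction. With no filter, counts were 1 member and 4 of the 67 lower in Neuro-2a, 14 higher with SETD5-AS1, 2 higher with LINC00641, 11 lower for LINC00662 against SETD5-AS1, 8 higher for SETD5-AS1 against LINC00641, and 2 and 4 lower in the interaction. LINC00641 gave 2 higher by library size alone and with filterByExpr, and 4 lower with all ASO groups in one fit. LINC00662 against LINC00641 gave 0 lower with filterByExpr. The control ASO summed level was 103 CPM by library size alone.

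Leaving out 1 library, members higher ran from 3 to 8 in HCT116 and lower from 0 to 1, higher from 0 to 1 in NIH3T3 (3 at most, 0 at least, for the 67), and lower from 0 to 2 in Neuro-2a (0 to 9 for the 67). For CBX7 higher ran from 4 to 13. For SETD5-AS1 higher ran from 0 to 13 and lower from 3 to 7, with 4, 5 and 4 higher without control ASO replicate 1, 2 and 3. For LINC00641 higher ran from 1 to 2 and lower from 4 to 6. Lower ran from 0 to 12 for LINC00662 against SETD5-AS1 and from 0 to 1 against LINC00641, and higher from 0 to 8 for SETD5-AS1 against LINC00641. In the interaction lower ran from 1 to 2, and from 1 to 6 for the 67.

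Replicate numbers did not pair the samples: correlations of same-numbered deviations were -0.042 to 0.082. With the replicate block, 7 members were higher in HCT116, 11 with CBX7 and 5 with SETD5-AS1, and 4 were lower with LINC00641, 4 for LINC00662 against SETD5-AS1 and 0 against LINC00641. The alternatives for the HEK293T Chrom-seq comparisons and for HCT116 minus HEK293T were not run. Most members had under 20 counts per library, which limits what could be detected.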
